A study of Mus musculus with 15 samples.

Results

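Collagen genes other than the main fibrillar chains of bone and the marker chains of cartilage were followed across 4 groups of mouse femora. The members are the mouse genes named Col, a type number, a and a chain number, without Col1a1, Col1a2, Col2a1, Col9a1 and Col10a1, each read at the 1 probe with the brightest mean sample signal over all arrays. The rule found 39 such genes among 21150 genes with a probe, and it used no difference between groups. The set is not free of cartilage chains, since Col9a2, Col9a3, Col11a1, Col11a2 and Col27a1, all chains that cartilage also contains, remain in it.

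All 15 samples came from male C57BL/6J mice labelled as 9 weeks old, with 1 array per mouse. The paper gives this as the approximate age at surgery, and the tissue was taken about a month later. G-Sham (n = 4) and FLT-Sham (n = 4) mice kept an intact femur, on the ground or in spaceflight on the International Space Station, while G-Surgery (n = 4) and FLT-Surgery (n = 3) mice had a segment of the femoral shaft removed before launch and replaced by a pinned poly(propylene fumarate)/tricalcium phosphate graft wrapped in a collagen sponge. The tissue was the midshaft callus or the same stretch of the sham femur, and ground mice lived in matching housing. RNA of the sample was labelled with Cy5 and a pool of RNA from mouse cell lines, the reference, with Cy3, on every array.

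Collagens are trimers of chains that share Gly-X-Y repeats, and they are sorted by the structures they build. Fibrillar collagens form the ropes of connective tissue, type IV chains form the sheet of basement membranes, type VI chains form beaded filaments around cells, and FACIT collagens sit on the surface of larger fibrils. Multiplexins lie at basement membranes, transmembrane collagens span the cell surface, type VII builds anchoring fibrils and type VIII builds short-chain networks. In a healing bone defect, granulation tissue, vessels, nerve sheath, muscle attachments and periosteum all contain such collagens beside the bone itself.

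A gene is called detected on an array where its Cy5 signal was well above background by the scanner software's flag. Its level is the log2 ratio of Cy5 to Cy3, in which 0 is equal to the reference and 1 is a doubling. A difference between groups is a difference of mean log2 ratios with its standard error (SE) from limma, a linear model fitted across all probes with a shared estimate of the spread. The cut-off is the one in the study's methods, an unadjusted p no larger than 0.01 together with a 2-fold change or more, and Benjamini-Hochberg adjusted p-values over all probes stand beside it. Array values are listed in order of replicate number, which is 1, 3, 4 and 5 for G-Sham, 4, 6, 8 and 9 for FLT-Sham, 1, 3, 4 and 5 for G-Surgery, and 1, 3 and 5 for FLT-Surgery. With 3 or 4 arrays a group, the precision of each value is limited by their number.

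The arrays lay on 3 slides, and FLT-Surgery replicates 3 and 5 were on slide 1 while replicate 1 was on slide 2. FLT-Surgery replicate 1 and FLT-Sham replicate 8 stood apart from the rest of their groups, and results that rest on them are given with and without them. G-Sham replicate 1 also lay below its group in the mean of the muscle markers (6.13 against 8.08 to 8.76) and of the bone markers (0.16 against 1.59 to 2.68). Of the bone markers, 6 of 10 were detected on at least 3 arrays and Sp7, Dmp1, Sost and Phex on none. All 12 skeletal muscle markers were detected on at least 3 arrays. Of the 5 cartilage markers, Sox9, Matn3 and Hapln1 were detected on none, while Acan was detected on 2, 4, 4 and 2 arrays and Comp on 3, 3, 4 and 1 in the order G-Sham, FLT-Sham, G-Surgery, FLT-Surgery. In bulk tissue, fewer cells of a type and less RNA per cell cannot be told apart.

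For 2 of the members that passed the cut-off, the 250 bases before the start of transcription could be shown without entering the gene (RefSeq, GRCm38.p6). They are printed because the starts of the genes differ in base composition, and capitals mark the motifs found. Col3a1 lies on the forward strand at chr1:45311288-45311537 and Col8a2 on the forward strand at chr4:126286544-126286793.
Col3a1: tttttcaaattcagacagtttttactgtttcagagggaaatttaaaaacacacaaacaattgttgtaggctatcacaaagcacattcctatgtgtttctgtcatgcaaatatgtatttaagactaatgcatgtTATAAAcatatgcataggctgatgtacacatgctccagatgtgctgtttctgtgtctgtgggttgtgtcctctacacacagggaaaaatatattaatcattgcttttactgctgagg
Col8a2: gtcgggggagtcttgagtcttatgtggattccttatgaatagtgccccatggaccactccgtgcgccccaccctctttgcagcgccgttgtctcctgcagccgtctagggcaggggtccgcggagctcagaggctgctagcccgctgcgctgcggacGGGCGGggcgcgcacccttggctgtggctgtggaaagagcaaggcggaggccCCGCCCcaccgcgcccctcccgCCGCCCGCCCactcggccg
The Col3a1 stretch had a GC content of 35.2% and 1 TATA box (TATAAA), while that of Col8a2 had a GC content of 70% and 4 GC boxes (GGGCGG), 2 of which overlap. Both strands were also searched for the CCAAT box (CCAAT) and for an AP-1 site (TGACTCA). Among 27025 genes, 14.3% held a TATA box, 37.5% a CCAAT box, 35.4% a GC box and 5.16% an AP-1 site in this window. Of the 32 collagen genes with a window, 4 held a TATA box, 11 a CCAAT box, 20 a GC box and 1, Col6a1, an AP-1 site. These are matches of letters and were not tested as binding sites. Some members are neighbours in the genome: Col3a1 and Col5a2 lie side by side on chromosome 1 with 24.6 kb between them and Col4a1 and Col4a2 lie next to each other on opposite strands of chromosome 8.

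Of the 39 collagen genes, 7 were detected on all 15 arrays, 15 on 3 to 14 arrays, 6 on 1 or 2 arrays and 11 on none. The 7 found everywhere were the fibrillar chains Col3a1 and Col5a1, the type VI chains Col6a1 and Col6a2, the anchoring fibril gene Col7a1, the FACIT gene Col16a1 and the multiplexin Col18a1, whose C-terminal fragment is endostatin. The share detected on at least 3 arrays was 56.4%, against 52.4% of all genes. Detection is a description, since the scanner's flag depends on the brightness of each array.

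By class, the fibrillar genes were split. Col5a2 was detected on 1 G-Sham array, 2 FLT-Sham arrays, 4 G-Surgery arrays and 1 FLT-Surgery array. Col5a3 was detected on 3, 4, 4 and 2 arrays in the same order of groups. Col11a1, a chain of cartilage fibrils, was detected on 1, 3, 1 and 0 arrays. Col11a2 and Col27a1 were each detected on 1 FLT-Sham array and Col24a1 on 2, so these 3 dim fibrillar genes appeared in FLT-Sham and in no other group.

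The type IV chains that most basement membranes contain, Col4a1 and Col4a2, differed in detection. Col4a1 was detected on 3 FLT-Sham arrays and 1 G-Surgery array, and on no array of the other groups. Col4a2 was detected on 3, 4, 4 and 2 arrays, and Col4a4 likewise on 3, 4, 4 and 2. Col4a6 was detected on 3, 3, 4 and 3 arrays, Col4a5 on 1 G-Surgery array and Col4a3 on none. Among the type VI genes, Col6a3 was detected on 3, 4, 4 and 1 arrays, and Col6a4, Col6a5 and Col6a6, which lie in a row on chromosome 9, on none. Of the short-chain pair, Col8a2 was detected on 2, 4, 3 and 0 arrays and Col8a1 on 1 G-Surgery array.

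Among the FACIT genes detection differed from group to group. Col14a1 was detected on 0 G-Sham arrays, 3 FLT-Sham arrays, 4 G-Surgery arrays and 1 FLT-Surgery array. Col12a1 was detected on 2, 4, 3 and 1 arrays, Col9a2 on 2, 1, 4 and 1, and Col20a1 on 2, 4, 3 and 2. Col22a1, known from the junctions of muscle with tendon, was detected on 4, 4, 4 and 1 arrays. Col9a3 and Col19a1 were not detected. The multiplexin Col15a1 was detected on 0, 1, 4 and 2 arrays, while the reference RNA was not above background at its probe on any array, so its ratios are to a background-level Cy3 signal.

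The transmembrane genes Col13a1, Col17a1 and Col23a1, and also Col26a1 and Col28a1, were detected on no array. The reference RNA was above background for Col23a1 on all 15 arrays, so this probe could register its transcript. Col25a1, the remaining transmembrane gene, was detected on 2 G-Sham arrays.

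Per array, 11 to 20 of the members were detected in G-Sham (median 14), 17 to 23 in FLT-Sham (median 20), 17 to 22 in G-Surgery (median 21) and 9 to 18 in FLT-Surgery (median 13). Over all genes, the share detected per array ran from 29.9% to 42.4% in G-Sham, 35.2% to 53.8% in FLT-Sham, 35.9% to 47.6% in G-Surgery and 29.4% to 35.5% in FLT-Surgery. FLT-Surgery was lowest by both measures, while G-Sham and G-Surgery had close medians over all genes (38.2% and 39.9%). The part of array brightness in the counts of members was not tested.

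**Figure D1:**
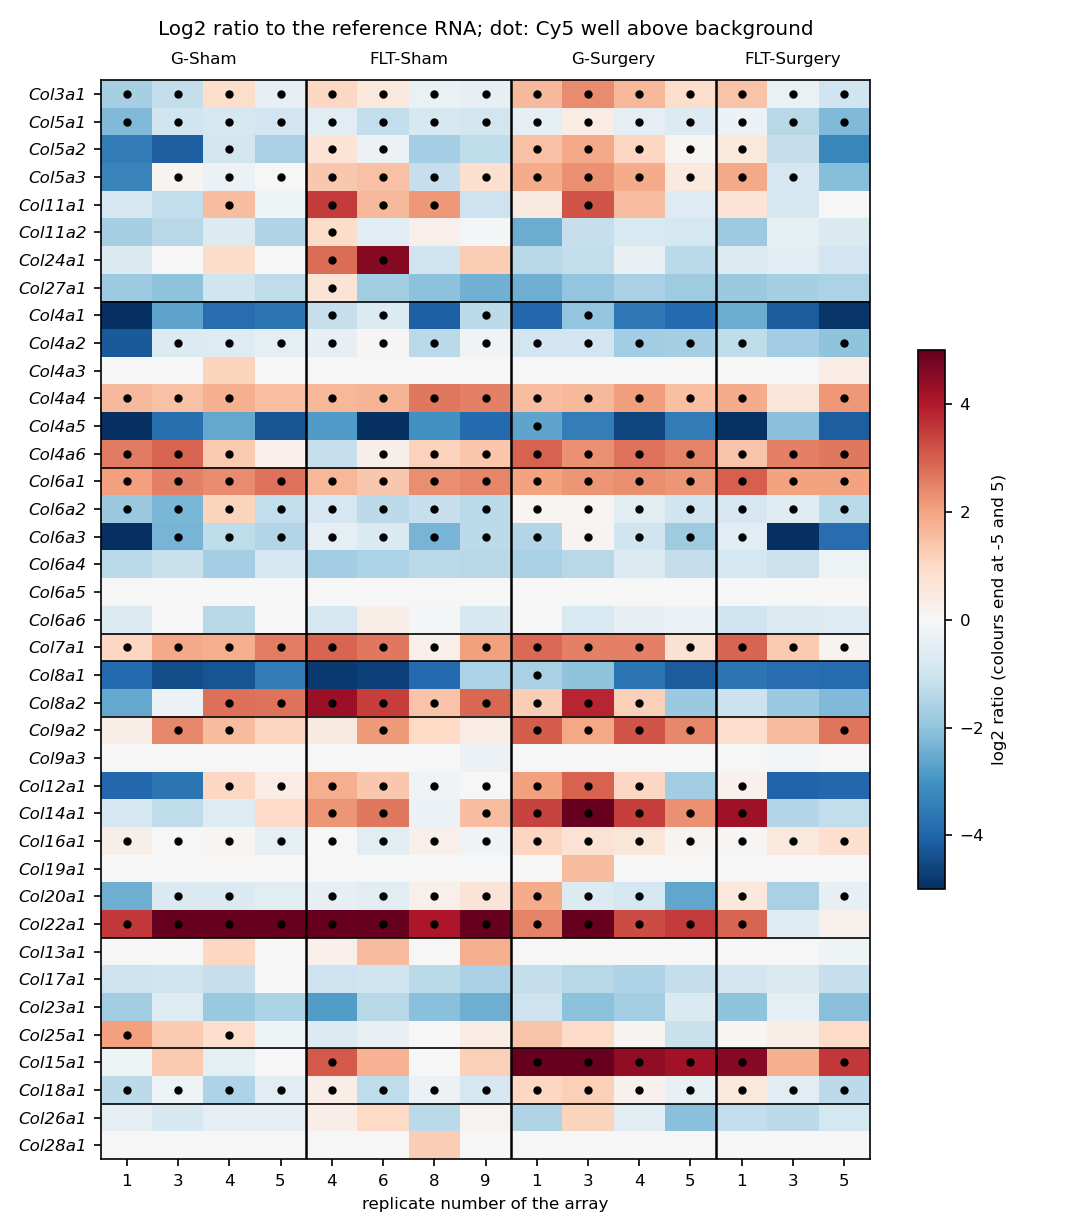
Log2 ratio to the reference (colour, ends at -5 and 5) for the 39 collagen genes (vertical axis, by class) on the 15 arrays (horizontal axis, by group and replicate), with a dot where Cy5 was well above background. Col15a1 and Col14a1 are dotted on all 4 G-Surgery arrays and on 0 G-Sham arrays, and 11 genes have no dot.

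Directions depend on how each array is centred, so the shift over all probes is given first. With a further loess in place of the deposited ratios, the median difference over all probes tested moved from 0.24 to -0.13 in Sham, from -0.20 to 0.30 in Surgery, from 0.14 to -0.09 for surgery on the ground and from -0.28 to 0.36 for surgery in spaceflight. The median of the collagen genes less that of all probes was 0.55 with the deposited ratios, 0.49 with a further loess and 0.18 with normexp background correction and loess in Sham. In the same order it was -0.76, -0.78 and -0.29 in Surgery, 0.75, 0.72 and 0.31 for surgery on the ground, and -0.30, -0.27 and -0.0046 for surgery in spaceflight.

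Surgery was first compared with Sham on the ground. Collagen genes were mostly higher in G-Surgery, led by a multiplexin, a FACIT collagen and the fibrillar chains. Of 20 genes tested, 18 were higher and 2 lower, with a median difference of 0.89 on the log2 scale against 0.17 over the 9058 genes tested. Of those 9058 genes, 62.8% were higher. At the cut-off 4 rose, Col15a1, Col14a1, Col5a2 and Col3a1, and none fell. The cut-off was passed in the upward direction by 2.68% of all genes. At an adjusted p of at most 0.05 limma called 1 member, Col15a1, where the rate over all genes was 0.0221%, or 2 genes. At an unadjusted p of at most 0.05 limma called 9 members, 8 of them higher, against 11.9% of all genes.

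Col15a1 encodes a collagen at basement membranes of vessels and muscle. Its log2 ratios were -0.20, 1.32, -0.47 and 0 in G-Sham, 3.07, 1.73, 0 and 1.21 in FLT-Sham, 4.97, 5.45, 4.44 and 4.18 in G-Surgery, and 4.55, 1.76 and 3.54 in FLT-Surgery. All 4 G-Surgery arrays lay above every Sham array. The difference on the ground was 4.60 (SE 0.45, 95% interval 3.56 to 5.63, adjusted p = 0.0407 from limma). With normexp it was 0.78 and no longer past the cut-off, and the adjusted p from limma ranged from 0.0257 to 1 over the settings tried. Since no G-Sham array was above background, the fold is a bound, and Col15a1 was at least 5.66-fold higher in G-Surgery. For this bound the normalized Cy5 level was set, array by array, against the dimmest signal that still counted as above background. The measured signal was used where it was higher. This and the later bounds compare group means without the spread between arrays, and with no dye swap a dye effect could enter them.

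Col14a1, which lies on collagen fibrils of tendon, skin and other dense tissue, had log2 ratios of -0.89, -1.28, -0.65 and 0.96 in G-Sham, 2.23, 2.63, -0.31 and 1.53 in FLT-Sham, 3.39, 5.36, 3.47 and 2.29 in G-Surgery, and 4.23, -1.47 and -1.22 in FLT-Surgery. The G-Surgery arrays were all above the G-Sham arrays, and FLT-Surgery replicate 1 was far above the other two of its group. The difference on the ground was 4.09 (SE 0.70, adjusted p = 0.176 from limma). As a bound, Col14a1 was at least 10.8-fold higher in G-Surgery than in G-Sham, where it was below background on every array.

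Col5a2 encodes a chain of type V collagen, which helps to set the width of type I fibrils. Its log2 ratios were -3.48, -4.11, -0.92 and -1.61 in G-Sham, 0.67, -0.28, -1.68 and -1.28 in FLT-Sham, 1.46, 1.89, 1.03 and 0.11 in G-Surgery, and 0.52, -1.21 and -3.26 in FLT-Surgery. G-Surgery was above G-Sham on every array and overlapped with FLT-Sham. The difference on the ground was 3.65 (SE 0.73, adjusted p = 0.205 from limma), and with normexp it was 0.77 and short of the cut-off. Col5a2 and Col3a1 have a single probe each, whereas the 2 other probes of Col15a1 were detected on 0 arrays and the other probe of Col14a1 on 1 G-Surgery array, so the calls for those genes rest on 1 probe.

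Col3a1, the chain of type III collagen in vessels and granulation tissue and the neighbour of Col5a2 on chromosome 1, had log2 ratios of -1.67, -1.17, 0.87 and -0.39 in G-Sham, 1.02, 0.53, -0.32 and -0.42 in FLT-Sham, 1.60, 2.34, 1.67 and 0.89 in G-Surgery, and 1.44, -0.34 and -0.98 in FLT-Surgery. The lowest G-Surgery array only just exceeded the highest G-Sham array. The difference on the ground was 2.22 (SE 0.56, adjusted p = 0.297 from limma). It missed the cut-off without G-Sham replicate 3, without G-Surgery replicate 3 and without G-Surgery replicate 4, with values between 1.86 and 2.71 over all arrays left out in turn.

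Other members stayed short of the cut-off on the ground. Col5a3 differed by 2.49 (SE 0.79) and Col5a1, its partner in type V collagen, by 0.95 (SE 0.38). Col18a1 differed by 1.40 (SE 0.45) and Col9a2, a FACIT chain of cartilage fibrils, by 1.29 (SE 0.48). Col22a1 was the member with the most negative difference, at -2.52 (SE 0.90, adjusted p = 0.377 from limma). Under each of the 4 other scalings Col22a1 passed the cut-off as lower, with differences between -2.86 and -1.83. By class, 4 of 4 fibrillar genes were higher (median 2.36), as were 5 of 6 FACIT genes (median 0.97), and all 4 fibrillar genes were higher under each of the other 4 scalings too. The 3 type IV genes had differences between 0.10 and 0.84, and under each of the other scalings 2 of them were negative.

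With slide as a block, 5 genes passed the cut-off as higher on the ground, the same 4 and Col6a2, where 1.28% of all genes did. Without G-Sham replicate 1, 5 genes passed as higher and 1 as lower, beside 2.32% and 2.26% of all genes. Slide 1 held a single G-Sham mouse (replicate 3) and slide 2 a single G-Surgery mouse (replicate 3). Within-slide values therefore rest on a group of a single mouse. The difference of Col15a1 was 4.31 with the block, 3.21 within slide 1 and 5.54 within slide 2. Macrophage markers moved in the same direction, since the mean log2 ratio of the 5 genes listed, all detected on at least 3 arrays, lay between -1.24 and -0.38 in G-Surgery and between -2.04 and -1.43 in G-Sham. The 2 detected cartilage markers, Acan and Comp, had means between 2.78 and 4.48 in G-Surgery and between 0.03 and 2.68 in G-Sham, so neither list overlapped between these groups. Of 8 endothelial and mural markers, 6 were detected on at least 3 arrays and Tek on none, and the mean log2 ratio of those 6 lay between 1.08 and 2.25 in G-Surgery and between 0.55 and 1.31 in G-Sham. Of 6 tendon and fibroblast markers, 3 were detected on at least 3 arrays and Dpt on none, and the means of those 3 lay between -2.14 and -0.73 in G-Surgery and between -2.25 and -1.33 in G-Sham. Their part in the collagen differences was not tested.

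**Figure D2:**
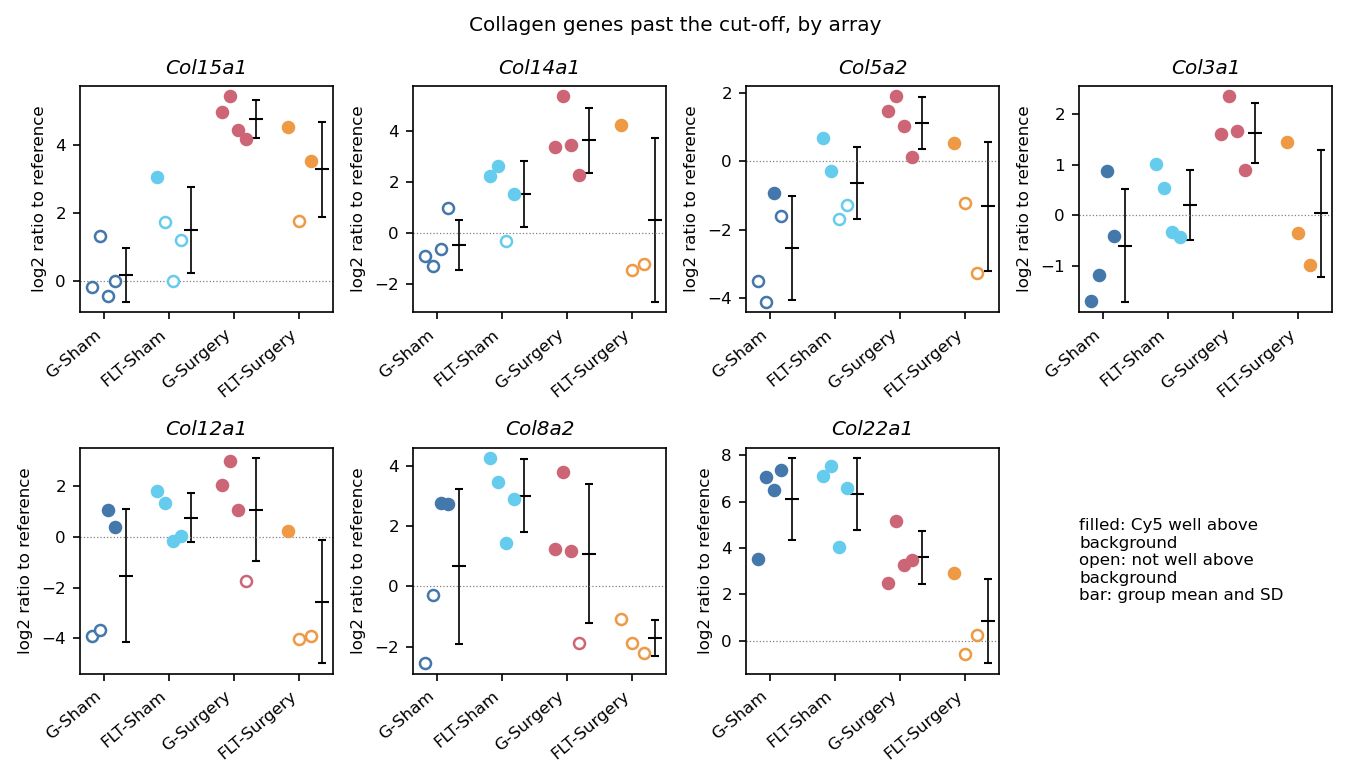
Log2 ratio to the reference (vertical axis) on each array for the members past the cut-off in any comparison, by group (horizontal axis), with filled points where Cy5 was well above background and bars at group mean and SD. Col15a1 lies between 4.18 and 5.45 in G-Surgery and at or below 1.32 in G-Sham, and Col8a2 is below background on all 3 FLT-Surgery arrays.

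Surgery was next compared with Sham in spaceflight, with the same question of what the defect changed. Here the members as a whole were near the shift of all genes, and a network collagen and a muscle junction collagen were lower. Of 21 genes tested, 6 were higher and 15 lower, with a median of -0.58 against -0.55 over the 10096 genes tested. Of those 10096 genes, 33.6% were higher. The split of the members was 12 higher and 9 lower after a further loess (median 0.09) and 13 and 8 with normexp (median 0.07). At the cut-off 2 fell, Col8a2 and Col22a1, which is 9.52% of the members tested, and 7.98% of all genes passed it in that direction. At an unadjusted p of at most 0.05 limma called 5 members, 4 lower and 1 higher, against 28.4% of all genes, and at an adjusted p of at most 0.05 it called 0.

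Col8a2 encodes a chain of type VIII collagen, known from the membrane under the corneal endothelium and from vessel walls. Its log2 ratios were -2.55, -0.29, 2.77 and 2.73 in G-Sham, 4.27, 3.47, 1.43 and 2.88 in FLT-Sham, 1.25, 3.81, 1.18 and -1.86 in G-Surgery, and -1.06, -1.86 and -2.22 in FLT-Surgery. All FLT-Surgery arrays were below background and below every FLT-Sham array, while both ground groups were spread widely. The difference in spaceflight was -4.73 (SE 0.69, adjusted p = 0.0736 from limma), or -1.36 with normexp. In means, Col8a2 was at least 7.98-fold higher in FLT-Sham than in FLT-Surgery. A second Col8a2 probe was detected on 0 arrays of either group, with means of -0.73 in FLT-Sham and -0.06 in FLT-Surgery. The call thus rests on 1 probe. The difference was -4.90 with slide as a block, -6.31 within slide 1 and -3.66 within slide 2. Slide 1 held a single FLT-Sham mouse (replicate 4) and slide 2 a single FLT-Surgery mouse (replicate 1). Each within-slide value therefore rests on a group of a single mouse.

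Col22a1, the collagen of muscle junctions, had log2 ratios of 3.52, 7.09, 6.51 and 7.35 in G-Sham, 7.11, 7.56, 4.06 and 6.61 in FLT-Sham, 2.47, 5.16, 3.26 and 3.50 in G-Surgery, and 2.92, -0.59 and 0.23 in FLT-Surgery. FLT-Surgery did not overlap with FLT-Sham, and FLT-Surgery replicates 3 and 5 were below background. The difference in spaceflight was -5.48 (SE 1.07, adjusted p = 0.121 from limma). With normexp it was -3.13 and no longer past the cut-off. The difference was -5.10 with slide as a block, -7.29 within slide 1 and -3.16 within slide 2. As for Col8a2, each within-slide value rests on a group of a single mouse.

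Of the 12 muscle markers, 11 had a lower mean in FLT-Surgery than in FLT-Sham, and Myh4 had 11.18 against 10.44. Over all 12, the mean log2 ratio lay between 6.13 and 8.76 in G-Sham, between 6.64 and 8.81 in FLT-Sham and between 5.75 and 7.96 in G-Surgery, and was 7.11, 3.80 and 4.26 in FLT-Surgery replicates 1, 3 and 5. The arrays with the lowest muscle level were also those where Col22a1 was not detected, while the FLT-Surgery and FLT-Sham ranges of the muscle mean overlapped.

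Other marker lists had a lower mean in FLT-Surgery than in FLT-Sham without overlap, in a comparison where 33.6% of all genes were higher. The mean log2 ratio of 4 detected adipocyte markers lay between -0.95 and 1.84 in FLT-Surgery and between 3.12 and 5.64 in FLT-Sham, and Lep was detected on no array. That of 4 detected erythroid markers lay between 0.90 and 3.77 against 4.79 to 7.64, with Klf1 and Epb42 on no array. That of the 7 neutrophil markers lay between 3.05 and 5.59 against 6.34 to 7.63, and that of the 6 detected bone markers between 0.68 and 1.96 against 2.02 to 3.66. Of the neutrophil markers 6 were lower and 1, Elane, higher (4.02 against 3.21). Of the bone markers 4 were lower and 2 higher, Runx2 (1.48 against 0.47) and Ibsp (4.31 against 4.27). The part of muscle or of any of these cell types in the collagen differences was not tested.

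**Figure D3:**
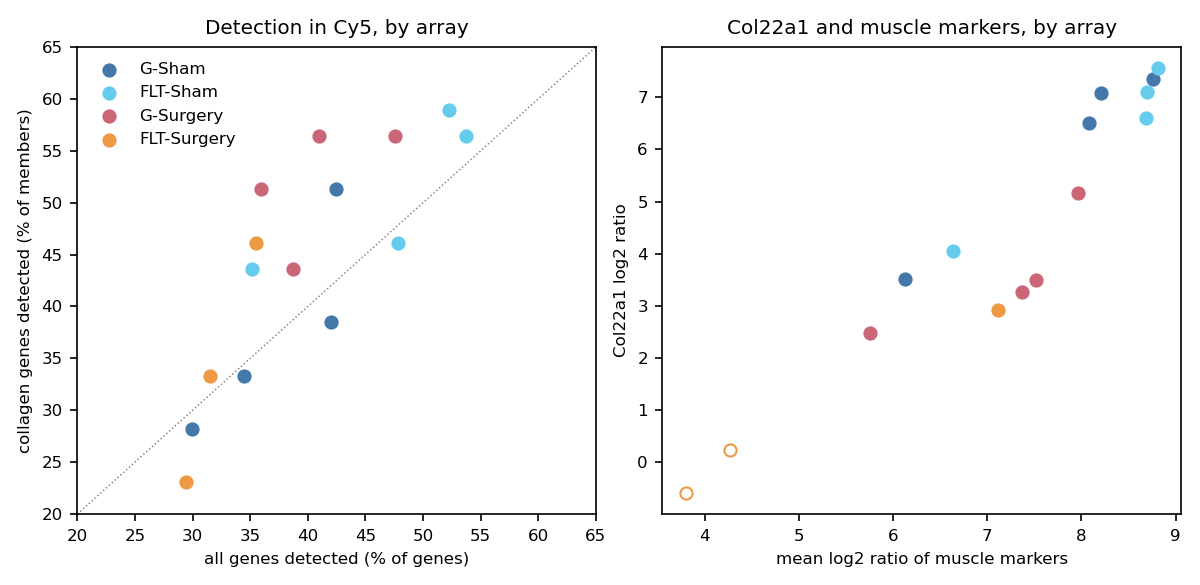
Left, the percentage of the 39 members detected against the percentage of all genes detected on each array, with the line of equality. Right, Col22a1 log2 ratio against the mean log2 ratio of 12 muscle markers on each array, open where Col22a1 was not well above background; the open points are FLT-Surgery replicates 3 and 5, with muscle means of 3.80 and 4.26.

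Col12a1, a FACIT collagen of periosteum, tendon and fascia, had log2 ratios of -3.93, -3.66, 1.05 and 0.38 in G-Sham, 1.81, 1.35, -0.16 and 0.01 in FLT-Sham, 2.03, 2.97, 1.04 and -1.75 in G-Surgery, and 0.23, -4.01 and -3.91 in FLT-Surgery. Its FLT-Surgery arrays overlapped with those of FLT-Sham through replicate 1. The difference in spaceflight was -3.32 (SE 1.09, adjusted p = 0.158 from limma), short of the cut-off. Col4a6 differed by 1.79 (SE 0.68), the one positive difference at an unadjusted p of at most 0.05. Col15a1 differed by 1.78 (SE 0.87, adjusted p = 0.242 from limma), where its ground difference had been 4.60.

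The basement membrane chain Col4a2 had log2 ratios of -4.19, -0.67, -0.65 and -0.50 in G-Sham, -0.40, 0.06, -1.36 and -0.19 in FLT-Sham, -0.97, -0.97, -1.72 and -1.68 in G-Surgery, and -1.26, -1.72 and -2.02 in FLT-Surgery. The groups overlapped in the 4 pair comparisons, and G-Sham replicate 1 lay far below the other G-Sham arrays. Its difference in spaceflight was -1.20 (SE 0.45, adjusted p = 0.177 from limma). By class, 5 of 5 fibrillar genes were negative (median -0.67), but 3 of them turned positive after a further loess normalization. The count of 2 past the cut-off was also 2 with slide as a block, where 3.2% of all genes passed as lower. The count was 4 without FLT-Surgery replicate 1 and 4 without FLT-Sham replicate 8, all lower, where 14.7% and 26.1% of all genes passed as lower. Counts within a slide are left out, since each slide held a single mouse of FLT-Sham or of FLT-Surgery. With Cy5 alone 3 genes passed, 2 lower and 1, Col15a1, higher.

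Spaceflight was then compared with ground in operated mice, which asks whether flight altered the healing tissue. Most collagen genes leaned lower in FLT-Surgery but none passed the cut-off, and the set as a whole was not tested. Of 20 genes tested, 2 were higher and 18 lower, with a median of -0.96 against -0.35 over the 8478 genes tested. Of those 8478 genes, 30.0% were higher. After a further loess 6 members were higher and 14 lower. The limma fit called 0 of 20 at the cut-off, which 3.27% of all genes passed. At an unadjusted p of at most 0.05 it called 5, all lower, Col22a1, Col5a2, Col12a1, Col3a1 and Col8a2, against 19.4% of all genes.

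Col22a1 differed by -2.75 (SE 0.93, adjusted p = 0.280 from limma). Col12a1 differed by -3.64 (SE 1.38) and Col8a2 by -2.81 (SE 1.16), with Col8a2 at least 2.98-fold higher in G-Surgery, where 3 of 4 arrays measured it. Col5a2 differed by -2.44 (SE 0.86) and Col3a1 by -1.59 (SE 0.61, adjusted p = 0.287 from limma). In all 5 genes replicate 1 was the highest of the FLT-Surgery arrays. All 4 fibrillar genes were lower (median -1.78), and all 4 were lower under each other scaling. Of the FACIT genes, 5 of 6 were lower (median -1.83), or 4 of 6 after a further loess or median centring.

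FLT-Surgery replicate 1 decided the count in operated mice. Without it 9 genes passed the cut-off as lower, Col3a1, Col5a1, Col5a2, Col5a3, Col6a3, Col12a1, Col14a1, Col15a1 and Col22a1. With slide as a block, which sets replicate 1 against the single G-Surgery array of slide 2, 7 passed as lower, and within slide 1, which lacks replicate 1, also 7. Of all genes, 15.7% passed as lower without replicate 1, 8.86% with the block and 10.8% within slide 1, against 2.63% with all arrays and no block. Without G-Surgery replicate 5 the count was 2, Col12a1 and Col8a2. Macrophage markers had a mean log2 ratio of -0.41 in FLT-Surgery replicate 1 and of -1.90 and -2.34 in the others. The mean of Acan and Comp lay between 0.26 and 2.05 in FLT-Surgery and between 2.78 and 4.48 in G-Surgery, with no overlap. The part of macrophages or cartilage in these differences was not tested.

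In sham mice, the spaceflight comparison asks what flight did to an intact femur. Collagen genes leaned higher in FLT-Sham with wide intervals. Of 21 genes tested, 16 were higher and 5 lower, with a median of 0.80 against 0.38 over the 10303 genes tested. Of those 10303 genes, 68.1% were higher. The limma fit called 0 of 21 at the cut-off, which 1.97% of all genes passed. At an unadjusted p of at most 0.05 it called 3, all higher, Col14a1, Col4a1 and Col5a2, against 10.1% of all genes.

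Col14a1 differed by 1.98 (SE 0.73, adjusted p = 0.503 from limma) and was at least 1.97-fold higher in FLT-Sham. Col4a1 differed by 1.98 (SE 0.80, adjusted p = 0.510 from limma) and was at least 2.40-fold higher, both genes being below background on all G-Sham arrays. Col5a2 differed by 1.89 (SE 0.81, adjusted p = 0.515 from limma). Without FLT-Sham replicate 8, in which Col14a1 and Col4a1 were below background, these 2 genes passed the cut-off as higher, where 10.4% of all genes did. Col14a1 also passed without G-Sham replicate 5, and Col11a1 without FLT-Sham replicate 9. With slide as a block and within slide 2 the count was 0. All 5 fibrillar genes were higher (median 1.49), 4 of them after normexp background correction.

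Markers of other cells differed in level between the sham groups too. The 4 detected adipocyte markers had a mean log2 ratio between -0.24 and 3.96 (median 1.60) in G-Sham and between 3.12 and 5.64 (median 5.50) in FLT-Sham. The 4 detected erythroid markers lay between 2.92 and 5.90 (median 4.78) and between 4.79 and 7.64 (median 7.51). The 6 detected endothelial and mural markers lay between 0.55 and 1.31 (median 1.09) and between 0.86 and 3.32 (median 2.89). Of these 6, 3 had a higher group mean in FLT-Sham and 3 a lower one. Each list overlapped between the groups, and their part in the collagen differences was not tested.

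**Figure D4:**
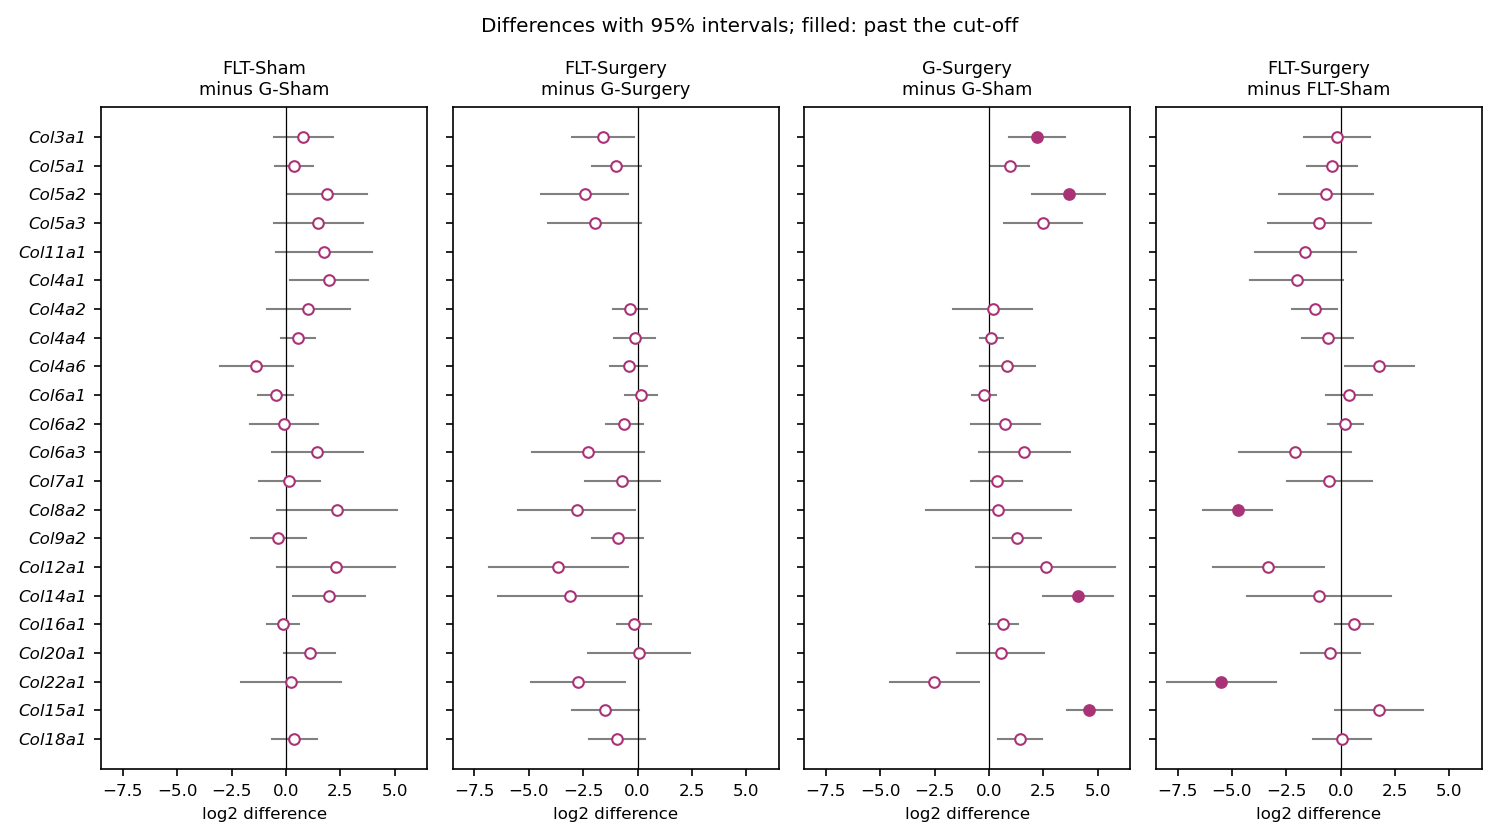
Log2 difference (horizontal axis, point) with its 95% interval (bar) for the members tested in each of 4 comparisons, filled where past the cut-off. Filled points are Col3a1, Col5a2, Col14a1 and Col15a1 above 0 in G-Surgery minus G-Sham and Col8a2 and Col22a1 below 0 in FLT-Surgery minus FLT-Sham.

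Whether flight acted differently on operated and intact femora was tested as an interaction over all 15 arrays, the flight difference in Surgery minus that in Sham. Values were negative for 20 of 22 genes, with a median of -1.87 against -0.72 over the 11089 genes tested. Of those 11089 genes, 30.0% had a positive value. The members were negative for 14 of 22 after a further loess (median -0.87) and for 15 of 22 with normexp (median -0.17). At the cut-off 3 genes were lower, Col5a2, Col14a1 and Col12a1, and 6.61% of all genes passed in that direction. At an unadjusted p of at most 0.05 limma called 10, all lower, against 24.9% of all genes. The interaction was -4.33 for Col5a2 (SE 1.26, adjusted p = 0.172 from limma), -5.09 for Col14a1 (SE 1.65) and -5.93 for Col12a1 (SE 1.96). Col8a2 reached -5.15 (SE 1.82) and Col15a1 -2.81 (SE 1.0), both short of the cut-off.

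All 5 fibrillar genes had a negative interaction (median -2.93), under every scaling tried. All 6 FACIT genes were negative as well (median -1.98), but 3 of them were positive after a further loess. The interaction uses the same arrays as the pair comparisons, so its values are no separate evidence. With slide as a block the count was 5, Col3a1, Col5a2, Col8a2, Col12a1 and Col14a1, where 4.34% of all genes passed as lower. It was 8 when FLT-Surgery replicate 1 was left out, beside 13.5% of all genes, and 0 when FLT-Surgery replicate 5 was, beside 2.78%. Without G-Sham replicate 1 it was 1, beside 4.01%. After a further loess it was 0.

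Col6a1, a type VI chain abundant around muscle fibres and in many connective tissues, had log2 ratios of 2.06, 2.52, 2.35 and 2.73 in G-Sham, 1.65, 1.34, 2.32 and 2.45 in FLT-Sham, 2.02, 2.21, 2.32 and 2.22 in G-Surgery, and 2.97, 2.0 and 2.02 in FLT-Surgery. All groups overlapped, and the 95% intervals of its differences were -1.30 to 0.34 in Sham, -0.60 to 0.88 in Surgery, -0.77 to 0.31 for surgery on the ground and -0.65 to 1.44 for surgery in spaceflight. Its partner Col6a2 had differences between -0.62 and 0.73 in the pair comparisons, and the third chain of the filament, Col6a3, between -2.27 and 1.62. Neither passed the cut-off with all arrays and no block, while Col6a2 passed on the ground with slide as a block and Col6a3 in Surgery without FLT-Surgery replicate 1.

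Col16a1, a FACIT collagen, had log2 ratios of 0.30, 0.02, 0.11 and -0.49 in G-Sham, -0.03, -0.56, 0.24 and -0.19 in FLT-Sham, 1.07, 0.74, 0.59 and 0.13 in G-Surgery, and 0.04, 0.51 and 0.86 in FLT-Surgery. Its groups overlapped in the 4 pair comparisons. A second Col16a1 probe, detected on every array, went another way, with means of 0.70 in G-Sham, -0.46 in FLT-Sham, 0.62 in G-Surgery and -0.71 in FLT-Surgery, and it passed the cut-off as lower in FLT-Surgery than in G-Surgery.

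Col7a1, the anchoring fibril gene, had log2 ratios of 1.02, 1.89, 1.81 and 2.54 in G-Sham, 2.89, 2.65, 0.25 and 2.07 in FLT-Sham, 2.82, 2.54, 2.50 and 0.78 in G-Surgery, and 2.90, 1.30 and 0.15 in FLT-Surgery. Every pair of groups overlapped, and its differences lay between -0.71 and 0.34. Col18a1 had log2 ratios of -1.30, -0.23, -1.52 and -0.53 in G-Sham, 0.33, -1.26, -0.28 and -0.84 in FLT-Sham, 1.02, 1.18, 0.21 and -0.38 in G-Surgery, and 0.54, -0.53 and -1.32 in FLT-Surgery. The ground groups of Col18a1 overlapped only through G-Surgery replicate 5, and a second Col18a1 probe passed the cut-off as higher in G-Surgery than in G-Sham.

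Genes that make, process and bind collagen were read from lists in the same fits. Of 17 genes tested that modify or fold collagen in the endoplasmic reticulum, 2 rose from G-Sham to G-Surgery, Plod2, a lysyl hydroxylase of the telopeptides, by 3.27 (SE 0.64), and Serpinh1, the collagen chaperone HSP47, by 1.75 (SE 0.36), where 2.68% of all genes passed as higher. Between FLT-Surgery and G-Surgery 3 of 17 were lower, Plod2 at -2.05 (SE 0.58), Serpinh1 at -1.83 (SE 0.48) and P4ha1, a subunit of prolyl 4-hydroxylase, at -1.23 (SE 0.32, adjusted p = 0.280 from limma), where 2.63% of all genes passed as lower. No gene of this list passed it in Sham or between FLT-Surgery and FLT-Sham.

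Of the genes for procollagen processing and cross-linking and of the collagen receptors, none passed the cut-off in any pair comparison, with 8 to 10 and 5 to 6 genes tested. All 8 processing genes tested were lower in FLT-Surgery than in G-Surgery (median -0.74). Over all genes tested there, 30.0% were higher and the median was -0.35. All 5 receptors tested were higher in G-Surgery than in G-Sham (median 1.18), where 62.8% of all genes were higher and their median was 0.17. In Sham, 4 processing genes were higher and 6 lower. These directions are given for the deposited ratios only. In the interaction, which 6.61% of all genes passed as lower, Plod2 reached -2.87 (SE 0.83) and Serpinh1 -2.33 (SE 0.62). Loxl1, a cross-linking oxidase, reached -1.22 (SE 0.37) as 1 of 10 processing genes, and Itga11, the collagen-binding integrin chain of fibroblasts, -5.46 (SE 1.60) as 1 of 7 receptors.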

How the data were processed

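Gene expression in femoral RNA was measured on 2-colour Agilent arrays in 15 mice, and the study describes this RNA as of low integrity. The authors deposited Feature Extraction output (version 12.0 in the submitters' processing notes, while the paper's methods name another), with background-subtracted and dye-normalized intensity values for the Cy5 and Cy3 channel of a spot, and a log10 ratio of Cy5 to Cy3. The deposited series table holds the same log10 ratio to within 0.005. Gene symbols came from the probes' accessions, which matched for 28020 of 55681 probes (50.3%).

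Here the log10 ratios were turned to log2, without a further loess because the deposited values already carry a dye normalization. Control and outlier spots were left out, no spot was saturated, and spots of a probe were averaged. A ratio is exactly 0 where neither channel was above background, at nearly all such spots. Tests were run with limma 3.58.1 (R 4.3.3) on the pair of groups in question or, for the interaction, on all 15 arrays, and covered probes whose Cy5 signal was well above background on 3 or more of those arrays. The fit was tested on simulated data. Alternatives were a further loess, median centring, normexp with an offset of 50 and loess, Cy5 alone, other filters, any probe of a gene, slide or replicate number as a block, array weights, other thresholds, the series table and each array left out. The normexp setting used median signals, since the files analysed here have no mean signals. Ratios of 0 set to missing were added after seeing the data. Precision is limited by the number of arrays. Promoter windows came from RefSeq tables of GRCm38.p6, which held 32 of the 39 members.

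Genes named on every array are those past the cut-off in any comparison and the brightest detected member of each class. Pathway genes are named where past the cut-off. The members and lists were chosen with earlier results of these data known.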

Additional observations from a re-analysis of the deposited data

Results flagged for a closer look

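In groups of 4 arrays, 36 combinations of a group and a gene were checked for an array far from the others, and 2 were found, where chance gives about 1 in 20; FLT-Surgery, with 3 arrays, was not checked. The first was Col4a2 in G-Sham, where replicate 1 was at -4.19 on the log2 scale and the gap to its neighbour took up 0.953 of the group's range. The other was Col7a1 in G-Surgery, where replicate 5 was at 0.78 and the gap took up 0.845.

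The difference between flight and ground was not the same in Surgery and Sham for 3 genes by the interaction in limma at the cut-off, with values of -4.33 for Col5a2, -5.93 for Col12a1 and -5.09 for Col14a1, and adjusted p-values of 0.172, 0.184 and 0.18. Without FLT-Surgery replicate 5 none of the 3 passed, and Col12a1 and Col14a1 each passed in 4 of the 15 fits with an array left out.

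A second probe of Col25a1, a transmembrane collagen, was outside the comparisons because it was dimmer than the probe used. It was above background on 3 FLT-Sham arrays and on 0 arrays of the other groups, with a mean log2 ratio of 2.94 in FLT-Sham.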

How the results depend on the processing

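The counts of collagen genes past the cut-off depended on the settings, and no cause was tested. In Sham the count of 0 became 1 with no filter on dim probes, 2 with array weights and 3 at an unadjusted p threshold of 0.05, and was 0 to 2 with each array left out. In Surgery the count of 0 became 1 with any probe of a gene, 7 with slide as a block, 7 within slide 1, 8 with array weights and 5 at that p threshold, and was 0 to 9 with each array left out. For surgery on the ground the count of 4 became 8 with Cy5 alone and 2 with both channels above background on every array. It was 1 at the adjusted threshold of 0.05, 9 at the unadjusted one, and 3 to 6 with each array left out. For surgery in spaceflight the count of 2 became 1 with normexp, 0 with both channels above background and 9 with array weights. It was 0 at the adjusted threshold, 5 at the unadjusted one, and 2 to 4 with each array left out. For the interaction the count of 3 became 0 with a further loess, 1 with median centring, 1 with normexp, 1 with no filter, 0 with both channels, 5 with slide as a block, 10 with array weights, 0 at the adjusted and 10 at the unadjusted threshold, and was 0 to 8 with each array left out. With normexp, Col4a2 in FLT-Surgery minus FLT-Sham turned to 0.036 and the interaction of Col4a1 to 0.17, and Col15a1 on the ground was 0.78 and no longer past the cut-off. The adjusted p of Col15a1 ranged from 0.0257 to 1 over the settings.

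Same-numbered arrays did not deviate together, with correlations from -0.36 to 0.35, so the numbers pair no arrays. With the replicate number as a block 0 genes passed in Surgery and 5 on the ground. No paired analysis was possible for surgery in spaceflight, where no number is shared, or in Sham, where only number 4 is. Signal over background limits what dim genes can show, and 17 members detected on fewer than 3 arrays went untested.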
